A study of Danio rerio with 6 samples.

Results

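Clustered open regions were examined in heart muscle cells of zebrafish larvae. A clustered (chained) region is a stretch of open chromatin that lies close to at least 2 others, so that together they form a dense domain. The members were 2263 of 12162 regions (18.6%), and they formed 588 chains. They were chosen by the positions of the peaks and by the number of libraries that called them. Peaks from any of the 6 libraries on the 25 chromosomes were joined into a region where they shared at least 1 bp, and regions with peaks of 2 or more libraries were kept. Neighbouring kept regions were chained when the gap between them was at most 12.5 kb, and chains of 3 or more regions made up the members. The other 9899 kept regions, of which 7237 were isolated and 2662 lay in pairs, are called unchained.

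The libraries were ATAC-seq libraries, in which the transposase Tn5 cuts and tags accessible DNA. In the wt1b-overexpressing group the larvae carried Tg(eGFP:5xUAS:wt1b; gcryst:cerulean)cn15 together with the driver Tg(myl7:Gal4)cbg2Tg. In the control group they carried Tg(eGFP:5xUAS:RFP; gcryst:cerulean)cn15 and the same driver, and the labels give both UAS lines the allele name cn15. Each group had 3 libraries, all from GFP-positive cells that were sorted at 5 days after fertilisation from strain AB and labelled as cardiomyocytes. Both groups thus carried the Gal4 activator under the promoter of myl7, a heart muscle myosin light chain gene, an eGFP reporter under UAS control and a cerulean marker driven by a crystallin (lens) promoter. They differed in whether Gal4 drove wt1b or the red fluorescent protein RFP. The labelled cell type was not checked against marker genes, because gene positions in the coordinates of the peak lists were not used here.

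Open chromatin marks promoters, enhancers and other regulatory DNA from which nucleosomes are displaced. Groups of neighbouring open elements are common around genes that define a cell's identity, and a stitching distance of 12.5 kb is widely used to join such elements into domains. Joining by distance alone does not show what a domain does, and no enhancer class is assigned to the chains here. wt1b is a zebrafish gene for the zinc-finger transcription factor WT1, which both activates and represses genes and which in the heart is best known from the epicardium, the outer cell layer. The comparison of the lines asks how accessibility differs when wt1b is forced on in heart muscle cells.

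The lists differed in length between the groups, and this bears on every result below. The lists of wt1b replicates 1, 2 and 3 held 9310, 4122 and 4091 chromosomal peaks, and those of control replicates 1, 2 and 3 held 29887, 29561 and 23334. Most peaks of the wt1b lists lay in kept regions (75.6%, 85.0% and 86.2% in replicates 1, 2 and 3), against 24.6%, 35% and 40.4% in the control lists. The peaks that lay in chained regions numbered 1539, 818 and 825 in wt1b replicates 1, 2 and 3, and 1480, 2023 and 1819 in control replicates 1, 2 and 3. Read depth is unknown, and its part in these differences was not tested.

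Most chains were short. Of the 588 chains, 363 (61.7%) had 3 regions, 120 had 4, 56 had 5 and 13 had 6. Only 36 chains had 7 or more regions, and these held 336 members. The span of a chain, counted from the start of its first to the end of its last region, had a median of 13677 bp (quartiles 8868 and 18827 bp) and ran from 1198 to 57691 bp. The gap between neighbours within a chain had a median of 2972 bp. Kept regions covered on median 19.0% of a chain's span, with a range from 5.94% to 94.1%, where peaks of a single library are not counted. Together the chains spanned 8.64 Mb, of which kept regions covered 1.77 Mb. These values follow from the rule that built the chains and are given as a description.

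**Figure D1:**
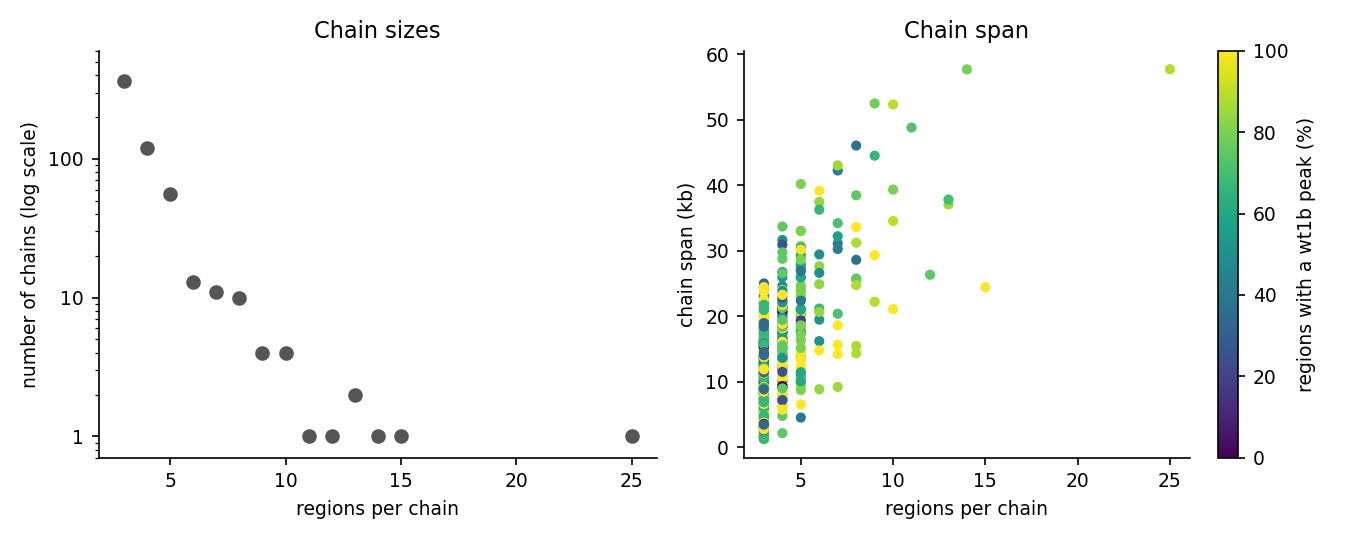
Left, the number of chains (log scale) by the number of regions they hold. Right, the span of each chain in kb by its number of regions, coloured by the percentage of its regions with a peak in at least 1 wt1b library; 363 chains hold 3 regions and a single chain holds 25.

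The regions just inside and just outside the distance limit had similar widths and wt1b shares. Between neighbours whose gap was at most 1 kb below the limit (139 gaps), the regions had a median width of 650 bp, 65.1% had a peak in at least 1 wt1b library and 14.4% had peaks in all 6. At most 1 kb above it (130 gaps), the median width was 676 bp, and the shares were 67.2% and 10.8%.

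The largest chain lay on chromosome 10 from 16784706 to 16842396 and held 25 regions in 57691 bp. Positions are given as in the deposited lists, counted from 1, and the submitters' processing notes name the zebrafish build GRCz11. In this chain, wt1b replicates 1, 2 and 3 had peaks in 22, 15 and 15 of the 25 regions, and control replicates 1, 2 and 3 in 23, 22 and 19. Peaks of all 6 libraries were present in 13 regions, among them the first 7 in a row, and kept regions covered 41.0% of the span. The widest region, from 16808200 to 16811633, measured 3434 bp and was called in every library. The 3 regions without any wt1b peak started at 16811950, 16823800 and 16831081 and were 481, 268 and 494 bp wide. All 3 were narrower than the median region of the chain, at 694 bp. They were called in 2 or 3 libraries each. Regions of this chain called in as few libraries but with a wt1b peak measured 366 to 694 bp.

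The second largest chain, on chromosome 14 from 20090102 to 20114517, packed 15 regions into 24416 bp, of which they covered 64.4%. Here the wt1b counts (14, 14 and 10 regions in replicates 1, 2 and 3) overlapped the control counts (13, 14 and 13). Every region had a peak in at least 1 wt1b library, and 10 were called in all 6 libraries. A chain on chromosome 4 from 28555405 to 28613079 held 14 regions, with 10, 6 and 8 called in wt1b replicates 1, 2 and 3 and 9, 13 and 10 in control replicates 1, 2 and 3. Its 6 regions called in all libraries included those of 3326 and 3226 bp. Its 4 last regions, from 28599287 on, were called in 2 or 3 libraries each.

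Chromosome 8 held a run of domains. From 34416886 to 35065722 lay 5 chains with 3, 3, 13, 6 and 10 regions. In the chain of 13, from 34775840 to 34813648, wt1b replicates 1, 2 and 3 had peaks in 9, 6 and 6 regions and control replicates 1, 2 and 3 in 12, 12 and 9. In the chain of 10, from 35044654 to 35065722, the regions covered 71.8% of the span, and the wt1b libraries called 10, 8 and 8 regions, against 9, 10 and 9 in the controls. Another dense chain of 13 regions lay elsewhere on chromosome 8, from 20415787 to 20452837, where a single region was called in all libraries and the wt1b libraries called 8, 3 and 3 regions, against 6, 11 and 6 in the controls.

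**Figure D2:**
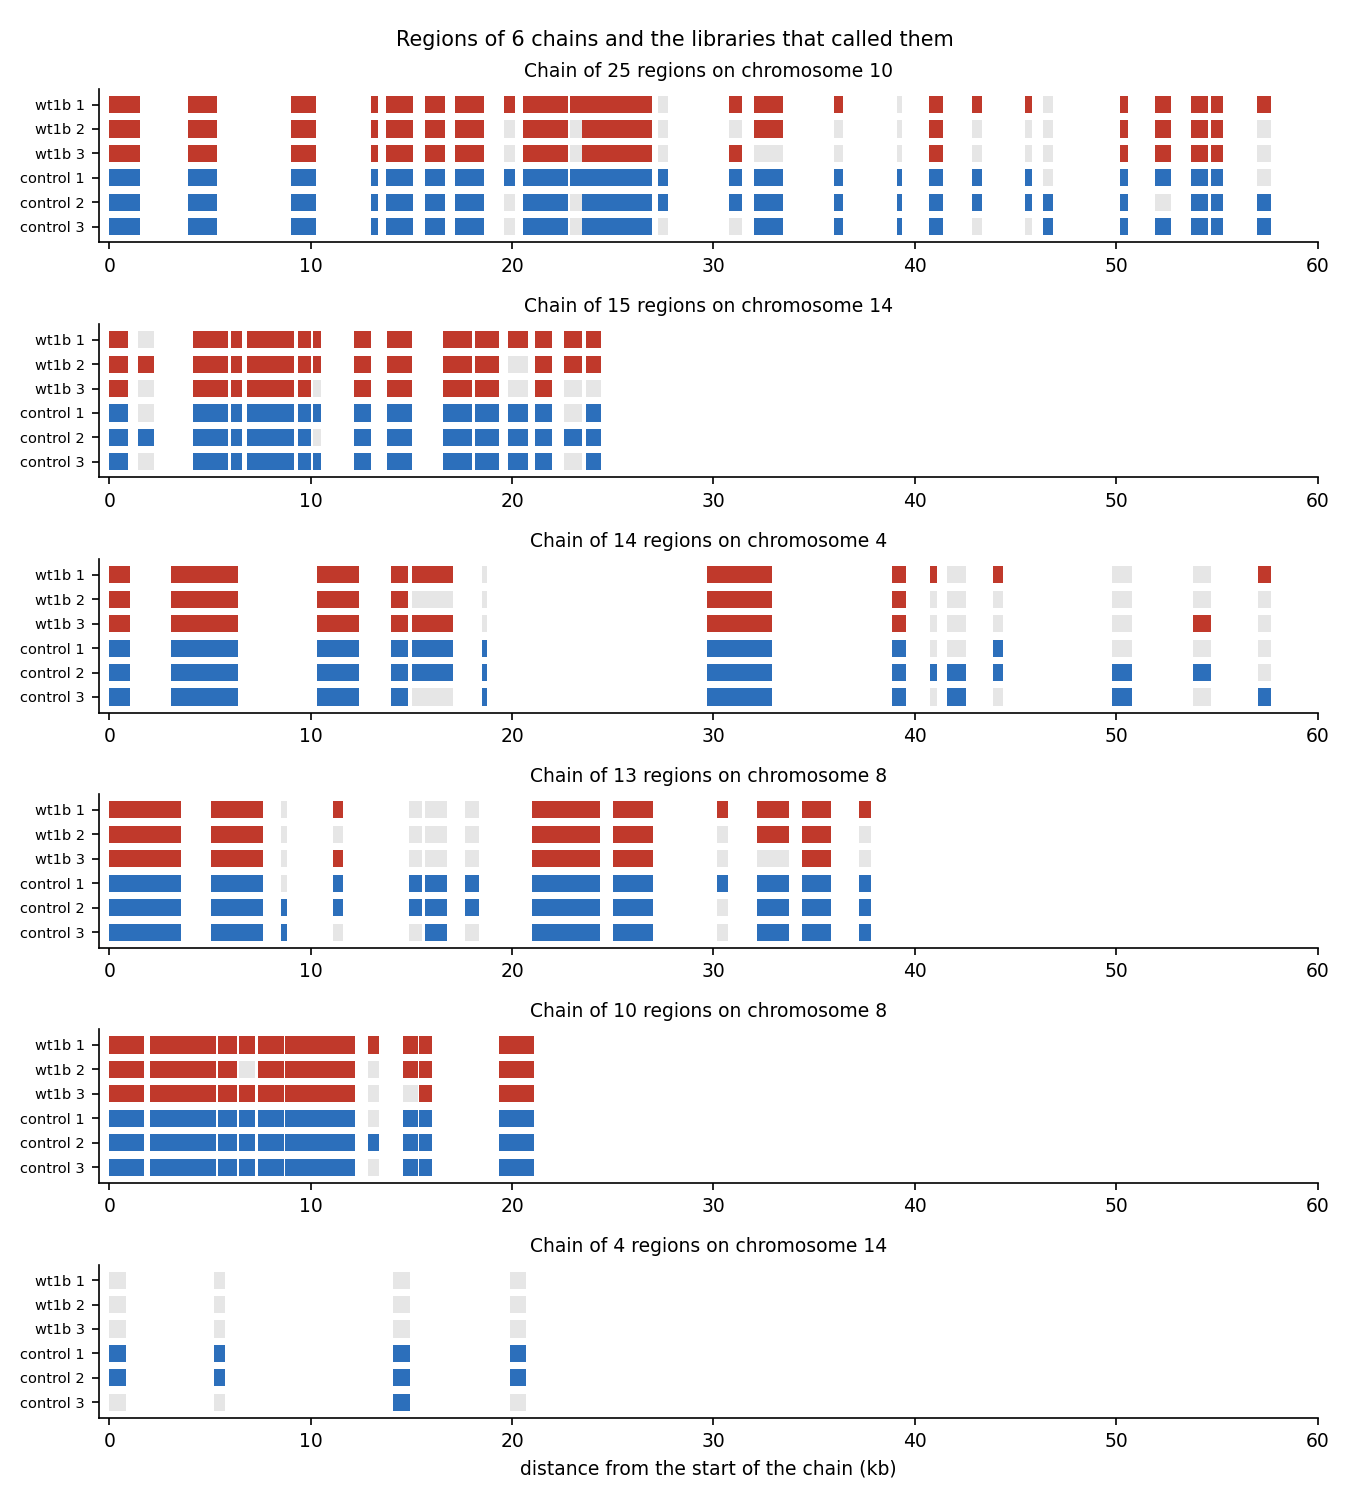
Regions of 6 chains drawn to scale by their distance in kb from the start of the chain, with a line for each library. A region is drawn at its merged width in red (wt1b) or blue (control) where that library had a peak in it and in grey where it had none; in the chain of 25 regions the first 7 are called in every library, and the chain of 4 on chromosome 14 has no wt1b peak.

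Among the other chains with many regions, the chain of 12 on chromosome 21 from 25839437 to 25865754 had 4 regions called in all libraries. The chain of 11 on chromosome 16 from 15653168 to 15701947 and the chain of 10 on chromosome 11 from 15110137 to 15144666 had 5 such regions each. The chain of 9 on chromosome 16 from 25920820 to 25950131 had 7. In the chain of 10 on chromosome 22 from 11143662 to 11195972, wt1b replicates 1, 2 and 3 called 9, 0 and 3 regions, control replicates 1, 2 and 3 called 5, 7 and 9, and no region was called in all 6 libraries, since wt1b replicate 2 had no peak there. In the chain of 10 near the start of chromosome 10, from 175027 to 214344, the wt1b counts of 7, 3 and 3 overlapped the control counts of 4, 9 and 6.

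Chains without any wt1b peak were few and small. Of the 588 chains, 20 (3.40%) had no peak of any wt1b library in any region, 194 (33.0%) had a wt1b peak in every region and 374 (63.6%) were mixed. Of all kept regions, 63.8% had a peak in at least 1 wt1b library. A chain without one needs 3 or more regions that all lack it, so these counts are a description. The largest chains without a wt1b peak held 4 regions, and only 2 chains of that size had none. The chain on chromosome 14 from 51830695 to 51851407 had 4, 4 and 1 regions called in control replicates 1, 2 and 3. The chain on chromosome 19 from 24143452 to 24152760 had 4, 4 and 2, and its regions were 284 to 323 bp wide, below the median member width of 690 bp. No chain lacked control peaks altogether, but only 1.29% of all kept regions lacked them.

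Recurrence was higher in chains. Members were called in 3.42 libraries on average and unchained regions in 3.07. Peaks of all 6 libraries were found in 349 members (15.4%) and in 938 unchained regions (9.48%), against 10.6% of all kept regions. The share called in all 6 was 8.79% for isolated regions, 11.3% for pairs, 10.4% in chains of 3, 16.7% in chains of 4, 15.1% in chains of 5 or 6 and 30.4% in chains of 7 or more. Because the rule itself asked for 2 libraries, these shares are a description.

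Recurrence was therefore measured again in a library that had taken no part. Each library was left out in turn, regions and chains were rebuilt from the other 5, and the rebuilt regions were searched for peaks of the library left out. A peak of wt1b replicate 1 was found in 57.8% of chained (95% interval 55.5% to 60.1%) and 45.5% of unchained regions (44.4% to 46.5%). For wt1b replicate 2 the shares were 30.7% (28.7% to 32.7%) and 22.5% (21.7% to 23.4%), and for wt1b replicate 3 they were 32.1% (30.2% to 34.1%) and 23.3% (22.5% to 24.2%). All 3 wt1b libraries thus found chained regions more often.

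The same held in the controls. For control replicate 1 the shares were 54.0% of chained (51.6% to 56.4%) and 43.7% of unchained regions (42.6% to 44.7%). For control replicate 2 they were 75.7% (73.2% to 78.1%) and 66.5% (65.4% to 67.6%), and for control replicate 3 they were 67.7% (65.2% to 70.1%) and 62.3% (61.2% to 63.4%). The intervals are exact Clopper-Pearson intervals that cover counting error only, and regions of a chain are not independent of each other. The chained share was higher in 6 of 6 libraries, by 9.04 ± 2.31 percentage points (SD, n = 6), and an exact two-sided sign-flip permutation test over libraries gave p = 0.0313, the smallest it allows. The rebuilt sets share most of their libraries, so the 6 differences are not independent, here and in the left-out comparisons below. Chained and unchained regions were not matched for width or for recurrence in the libraries that built them. Adjusted by Benjamini-Hochberg over a set of 8 tests, p was 0.0625 (exact permutation), and none of the 8 fell below 0.05 after the adjustment. The 8 include tests of values that are given below only as a description. Other p-values given here, such as those of alternative settings and of the group comparisons below, lie outside this set and were not adjusted. With peak centres extended to 200 bp in place of the peaks as called, the difference was 5.07 points (exact permutation p = 0.0938), and in the stronger 50% of each list it was 7.34 points (exact permutation p = 0.0625).

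**Figure D3:**
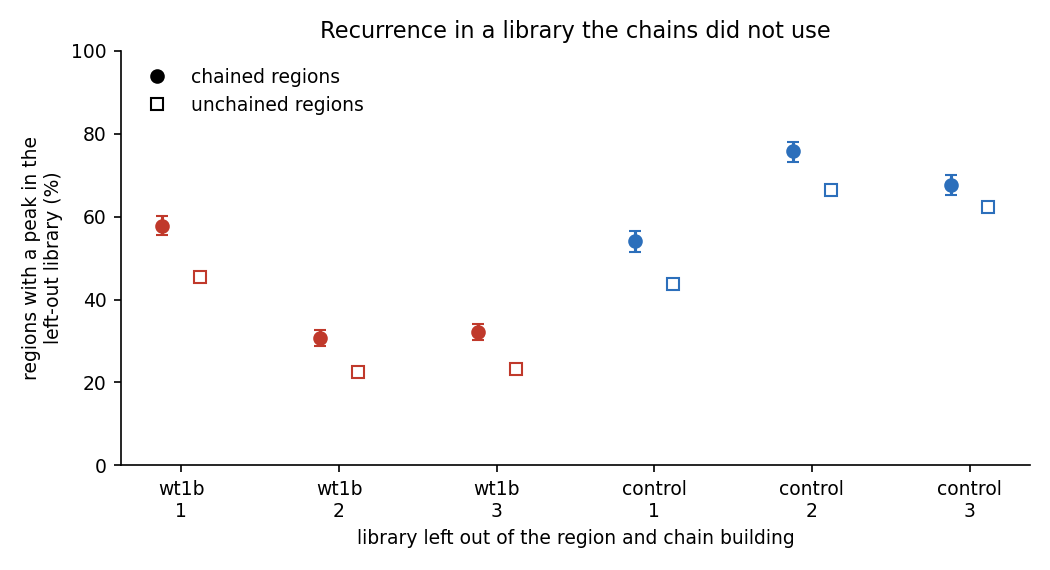
Percentage of regions with a peak in each left-out library (y axis) for chained regions (filled circles) and unchained regions (open squares), with exact 95% intervals; red marks wt1b and blue marks control libraries. Regions and chains were built from the other 5 libraries each time, and the chained share is the higher in all 6.

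In every library the share was higher in chains of 7 or more than in isolated regions. In wt1b replicates 1, 2 and 3, a peak of the left-out library was found in 68.1%, 42.9% and 47.2% of the regions in chains of 7 or more, and in 43.6%, 21.4% and 22.0% of isolated regions. In control replicates 1, 2 and 3 the shares were 66.5%, 88.5% and 70.6% in chains of 7 or more and 43.0%, 64.4% and 60.4% for isolated regions. Chains of 3 did not stand apart from pairs, which count as unchained. In wt1b replicates 1, 2 and 3 the shares were 54.0%, 25.1% and 27.9% in chains of 3 and 50.8%, 25.7% and 27.0% in pairs. In control replicates 1, 2 and 3 they were 49.8%, 70.2% and 67.0% in chains of 3 and 45.5%, 72.5% and 68.2% in pairs. Between the groups, the chained excess was 9.75 ± 2.28 points in wt1b and 8.34 ± 2.58 points in control libraries (SD, n = 3 each; exact two-sided permutation p = 0.6, where 3 against 3 allow no p under 0.1). As a ratio of chained to unchained shares it was 1.34 ± 0.0563 in wt1b and 1.15 ± 0.0759 in control libraries, and the groups did not overlap (exact permutation p = 0.1). As an odds ratio it was 1.57 ± 0.0644 in wt1b and 1.45 ± 0.161 in control libraries, with overlap (exact permutation p = 0.4). The size of the group difference thus depended on the scale, and no p was below 0.1.

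Members were wider than unchained regions. Their merged width had a median of 690 bp (quartiles 505 and 903 bp), against 644 bp (500 and 825 bp) for unchained regions, and 131 members (5.79%) measured 1500 bp or more, against 160 unchained regions (1.62%) and 2.39% of all kept regions. This share rose with chain size, from 2.48% in chains of 3 to 5.42% in chains of 4, 7.82% in chains of 5 or 6 and 14.9% in chains of 7 or more. In chains of 3 it was thus close to that of all kept regions. Among regions called in 2 libraries the medians were 564 bp in chains and 569 bp outside, and among those called in all 6 they were 1030 and 930 bp. By this measure the chained median was lower among regions called in 2 libraries and higher in each of the classes called in 3 to 6.

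Widths of the single peaks, as called in each library, were compared next. The median width of peaks in chained regions was 471, 452 and 479 bp in wt1b replicates 1, 2 and 3 and 447, 446 and 503 bp in control replicates 1, 2 and 3. In unchained regions it was 423, 402 and 436 bp in the wt1b lists and 420, 401 and 478 bp in the control lists. The difference was 39.8 ± 11 bp (SD, n = 6), and within classes of regions called in the same number of libraries it was 38.0 ± 14.2 bp. Peak ends took part in building the chains, so these widths are a description. Width was tested in the library left out each time, whose peaks were assigned to chained or unchained regions by their centre. Peaks at chained regions then had a median width of 494, 463 and 491 bp in wt1b replicates 1, 2 and 3 and 459, 486 and 537 bp in control replicates 1, 2 and 3. At unchained regions the medians were 433, 403 and 437 bp in the wt1b lists and 420, 424 and 495 bp in the control lists. Peaks at chained regions were wider in 6 of 6 left-out libraries, by 52.8 ± 10.0 bp (SD, n = 6; exact two-sided sign-flip permutation p = 0.0313, adjusted 0.0625).

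The authors' peak score, a whole number limited to 1000 that ranks peaks within their own list, was examined next. Peaks at the limit made up 53.5%, 44.7% and 42.4% of the peaks in chained regions in wt1b replicates 1, 2 and 3, and 51.8%, 40.8% and 39.7% of those in unchained regions. In control replicates 1, 2 and 3 the shares were 47.7%, 65.1% and 48.7% in chained and 40.9%, 60.6% and 44.1% in unchained regions. The chained share exceeded the unchained by 4.04 ± 1.77 percentage points (SD, n = 6), and within classes of equal recurrence the difference was -0.589 ± 1.37 points. In left-out libraries the chained share was higher in 5 of 6, by 1.62 ± 1.74 points (SD, n = 6; exact sign-flip permutation p = 0.0625, adjusted 0.1).

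Peaks kept under wt1b overexpression were measured on chains that no wt1b library had helped to build. From the 3 controls alone, 9783 regions had peaks of 2 or more controls, and 1503 of them (15.4%) formed 393 chains. A peak of wt1b replicate 1 was found in 914 chained regions, or 60.8% (95% interval 58.3% to 63.3%), and in 3817 unchained regions, or 46.1% (45.0% to 47.2%), against 48.4% of all control-defined regions. For wt1b replicate 2 the shares were 35.6% (33.2% to 38.1%) and 25.0% (24.0% to 25.9%), against 26.6% overall. For wt1b replicate 3 they were 36.3% (33.8% to 38.7%) and 25.7% (24.7% to 26.6%), against 27.3% overall. Control regions in chains were thus found in wt1b lists more often in 3 of 3 libraries, by 12.0 ± 2.37 percentage points (SD, n = 3; exact two-sided sign-flip permutation p = 0.25, the smallest that 3 libraries allow, adjusted 0.25).

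Chained control regions were also more recurrent and stronger in the controls themselves. Of the chained regions, 45.1% were called in all 3 controls, against 33.6% of the unchained. Strength was taken as the rank of a peak within its list by score times width, on a scale from 0 to 100 and averaged over the controls that called it. Its median was 71.4 in chained and 65.4 in unchained regions. Among regions called in all 3 controls, the chained excess in wt1b peaks was 5.54, 7.44 and 8.02 points in wt1b replicates 1, 2 and 3. Averaged within classes of equal control recurrence and strength (4 strength classes), it was 7.37, 3.99 and 3.87 points, a mean of 5.08 ± 1.99 (SD, n = 3; exact permutation p = 0.25). Within such classes the excess was thus smaller than the 12.0 points over all regions and was positive in 3 of 3 libraries.

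The excess was uneven over the strength classes. In regions called in all 3 controls and in the strongest 25% by strength, wt1b replicates 1, 2 and 3 had peaks in 95.5%, 75.8% and 77.5% of 355 chained regions and in 91.0%, 70.5% and 72.3% of 1091 unchained regions. In the weakest 25% the shares were 46.2%, 23.1% and 23.1% of 78 chained regions and 50.9%, 21.1% and 22.9% of 275 unchained regions, with no common direction. Over all control-defined regions in the weakest 25%, the chained excess was 13.8, 7.23 and 6.01 points in wt1b replicates 1, 2 and 3. Chained regions with and without a wt1b peak differed in control recurrence and strength, and so did unchained regions. Of the chained regions with a peak, 60.5%, 72.3% and 72.8% were called in all 3 controls in wt1b replicates 1, 2 and 3, against 21.2%, 30.1% and 29.3% of those without. The median strength of those with a peak was 81.6, 87.9 and 87.6 in wt1b replicates 1, 2 and 3, and of those without a peak 58.9, 63.4 and 62.9. In unchained regions the shares called in all 3 controls were 55.4%, 66.8% and 66.1% with a peak and 14.9%, 22.5% and 22.4% without. Their median strength was 76.9, 82.0 and 81.7 with a peak and 56.1, 59.9 and 60.1 without.

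The share of control-defined regions with a wt1b peak was highest in the largest chains. In wt1b replicates 1, 2 and 3 it was 72.1%, 51.1% and 56.8% in chains of 7 or more, 57.4%, 30.7% and 31.0% in chains of 3 and 44.2%, 23.4% and 24.3% for isolated regions. Pairs, which count as unchained, had 51.9%, 29.5% and 30.0%, close to chains of 3 in wt1b replicates 2 and 3. The share called in all 3 controls followed the same order, at 59% in chains of 7 or more, 42.2% in chains of 3 and 32.4% for isolated regions, so chain size and control recurrence moved together. By distance to the nearest control-defined region, the mean wt1b share over the 3 libraries was 45.3% ± 11.2 within 1 kb, 41.7% ± 15.7 from 1 to 5 kb, 32.9% ± 13.5 from 5 to 12.5 kb and 31.3% ± 13.0 from 12.5 to 25 kb (SD, n = 3). At 25 to 50 kb it was 34.7% ± 12.3 and beyond 100 kb it was 26.1% ± 10.4. In each of these distance classes wt1b replicate 1, with the longest of the wt1b lists, lay above the others. Between 1 to 5 kb and 5 to 12.5 kb the share was lower at the longer distance in all 3 libraries, at 48.5%, 24.7% and 25.5% against 59.8%, 33.1% and 32.3%. The share called in all 3 controls was lower there too, at 36.2% against 42.0%, so distance and control recurrence also moved together.

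**Figure D4:**
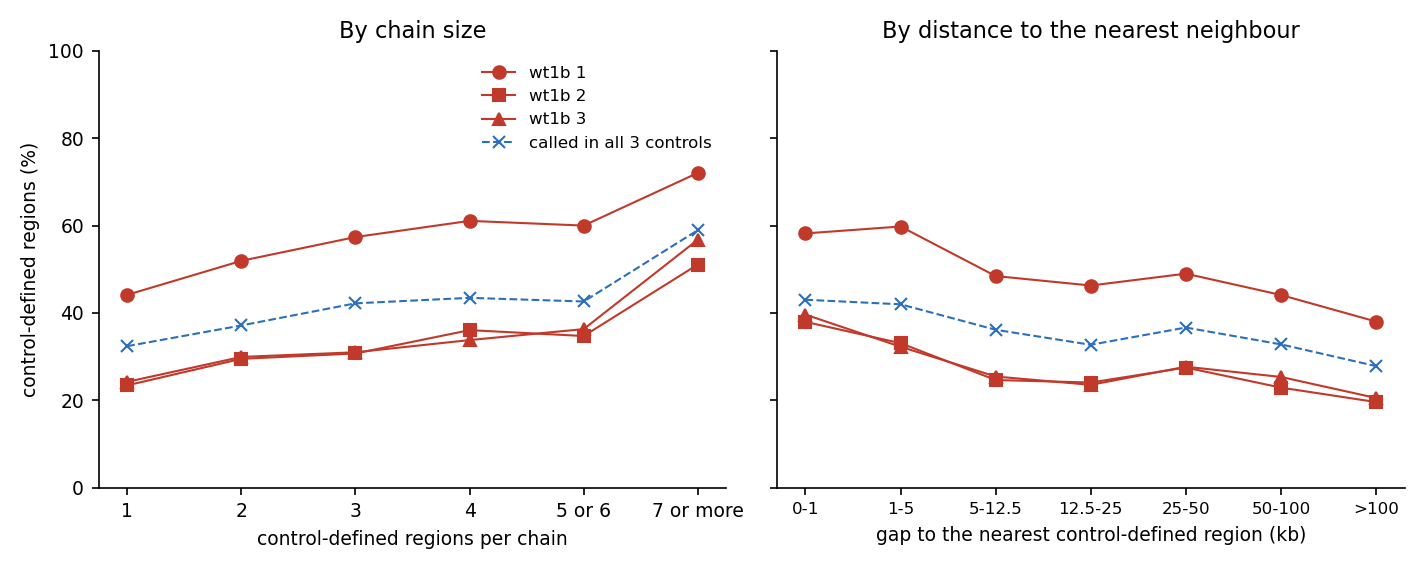
Percentage of control-defined regions with a peak in each wt1b library (red) and percentage called in all 3 controls (blue crosses), by the number of regions in the chain (left) and by the gap to the nearest control-defined region in kb (right). The wt1b shares are highest in chains of 7 or more, where 59% of the regions are called in all 3 controls.

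In the wt1b libraries, close neighbours more often shared their state than distant ones. For neighbouring control-defined regions up to 1 kb apart, a region whose neighbour had a wt1b peak had a peak itself in 74.6%, 61.3% and 59.4% of cases in wt1b replicates 1, 2 and 3. Where the neighbour had none, the shares were 36.9%, 24.6% and 28.1%. The difference was 35.3 ± 3.43 percentage points within 1 kb, 11.6 ± 5.19 from 1 to 5 kb, 7.92 ± 2.5 from 5 to 12.5 kb, 6.49 ± 3.79 from 12.5 to 25 kb and 2.53 ± 1.42 beyond 100 kb (SD, n = 3). Among neighbours within 1 kb that were both called in all 3 controls (163 pairs) it was 44.1 ± 5.93 points (SD, n = 3). Pairs called in all 3 controls gave 13.8 ± 1.85 points from 1 to 5 kb and 5.59 ± 6.85 from 5 to 12.5 kb. At 12.5 to 25 kb they gave 1.01 ± 13.9, and at 25 to 50 kb 8.43 ± 10.4. At 50 to 100 kb they gave -6.04 ± 12.0, and beyond 100 kb 5.45 ± 6.73. Beyond 5 kb the SD thus exceeded the size of the mean. Over all pairs, wt1b replicate 1 had 6.22 points from 1 to 5 kb and 10.3 points from 5 to 12.5 kb. Of the neighbours within 1 kb that both had a wt1b peak, 22.9%, 20.3% and 24.4% in wt1b replicates 1, 2 and 3 lay under the same peak. These values are a description across regions that share their libraries. The same was not computed for control libraries, so a trait of wt1b overexpression cannot be told from one of all libraries.

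**Figure D5:**
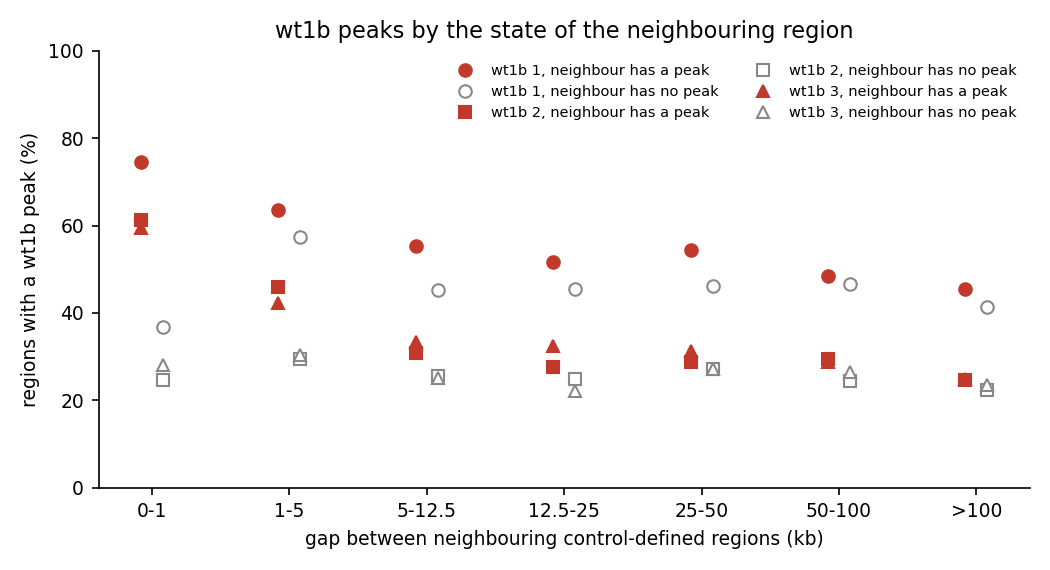
Percentage of control-defined regions with a wt1b peak (y axis) by the gap to the neighbouring region in kb, where that neighbour has a peak in the same library (red, filled) or has none (grey, open); each symbol is a wt1b library. The separation is widest within 1 kb, at 35.3 percentage points on average.

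A minority of control-defined chains had a wt1b peak in every region. Of the 393 control-defined chains, 33 (8.40%, 95% interval 5.85% to 11.6%) had no peak of wt1b replicate 1, 113 (28.8%, 24.3% to 33.5%) none of replicate 2 and 117 (29.8%, 25.3% to 34.6%) none of replicate 3. At least 3 regions were called in 152 chains (38.7%, 33.8% to 43.7%) by wt1b replicate 1, in 48 (12.2%, 9.14% to 15.9%) by replicate 2 and in 55 (14%, 10.7% to 17.8%) by replicate 3. Every region of the chain was called in 82, 20 and 15 chains by wt1b replicates 1, 2 and 3. Such a chain needs 3 or more regions that are all called. Of single chained regions, 60.8%, 35.6% and 36.3% were called in these libraries, so the chain counts are a description. Regions inside a chain had wt1b peaks in 62.5%, 40.0% and 40.3% of cases (717 regions) and those at its 2 ends in 59.3%, 31.6% and 32.6% (786 regions) in wt1b replicates 1, 2 and 3. Within chains of the same size class, the interior minus the end share was -0.258, 5.36 and 4.41 points, so no common direction held over the 3 libraries.

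Over the chains built from all 6 libraries, wt1b replicates 1, 2 and 3 called 62.2%, 32.3% and 33.2% of the members, and control replicates 1, 2 and 3 called 59.6%, 80.9% and 74.3%. The means were 42.6% ± 17.0 in wt1b and 71.6% ± 10.9 in control libraries (SD, n = 3 each), a difference of -29.0 points, and the groups overlapped because wt1b replicate 1 lay above control replicate 1. Of the unchained regions, 34.0% ± 15.4 were called in wt1b and 68.4% ± 11.5 in control libraries (SD, n = 3 each), without overlap. The calls of these 6 libraries also chose the regions, so these values are a description, and no p-value is given for them. The difference for members turned to 11.2 points at equal list size, where the 4091 peaks of each library with the highest score (the wider first among equal scores) were used and chained anew (407 members). Of all chromosomal peaks, 20.5%, 35.4% and 24.4% were at the score limit in control replicates 1, 2 and 3. In each control these outnumbered 4091, so the peaks used were all at the limit and were chosen by width. The lists of wt1b replicates 2 and 3 (4122 and 4091 peaks) were used whole or nearly whole. At equal list size 70.5% ± 1.28 of the members were called in wt1b and 59.3% ± 5.44 in control libraries (SD, n = 3 each). Of the unchained regions, 60.4% ± 3.88 were called in wt1b and 53.1% ± 11.5 in control libraries (SD, n = 3 each). The direction of the difference in means thus differed between full and equal-size lists, for members and for unchained regions. At equal size the groups did not overlap for members, but they overlapped for unchained regions. Of the unchained regions, wt1b replicates 1, 2 and 3 called 64.6%, 57.0% and 59.4%. Control replicates 1, 2 and 3 called 39.9%, 60.5% and 58.9%, so the lower control mean rested on control replicate 1.

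Chained regions took a larger share of the wt1b calls in full lists. Of the kept regions called in a library, members made up 21.6%, 23.0% and 22.9% in wt1b replicates 1, 2 and 3 and 19.8%, 19.4% and 18.9% in control replicates 1, 2 and 3. The means were 22.5% ± 0.807 in wt1b and 19.3% ± 0.443 in control libraries (SD, n = 3 each), a difference of 3.14 points given without a test for the same reason. With peaks of 3 libraries required of a kept region, the difference was 1.12 points. At equal list size they were 10.4% ± 0.744 in wt1b and 10.1% ± 1.39 in control libraries (SD, n = 3 each), and the groups overlapped. Chains rebuilt within each group gave 369 members of 3659 kept regions (10.1%) in wt1b and 1503 of 9783 (15.4%) in control libraries from full lists. From equal-size lists they gave 262 of 2888 (9.07%) in wt1b and 158 of 2378 (6.64%) in control libraries. Of the 369 members built from wt1b libraries alone, 90.0% overlapped a region kept in the controls, against 83.6% of the unchained regions of the wt1b libraries. A chained region of the controls was overlapped by 76.4% of these members. The same share was not computed for unchained regions of the wt1b libraries, so this value has no baseline and is a description.

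Regions that separate the groups were about as frequent in chains as elsewhere. In all 3 controls and no wt1b library, 122 members (5.39%) and 466 unchained regions (4.71%) were called, against 4.83% of all kept regions. In 2 or more wt1b libraries and no control, 29 members (1.28%) and 128 unchained regions (1.29%) were called, against 1.29% of all kept regions. A peak in at least 1 wt1b library was present in 71.9% of members and 61.9% of unchained regions, against 63.8% of all kept regions, and peaks of all 3 wt1b libraries in 18.7% and 12.4%, against 13.6%. In chains of 3 these 2 shares were 69.1% and 13.2%, and in chains of 7 or more 79.5% and 33.0%.

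Chains were found on all 25 chromosomes, and the share of kept regions that were members varied from 7.40% on chromosome 9 to 25.1% on chromosome 22, with a median of 19.3%. Chromosome 7 had the most chains (44) and chromosome 9 the fewest (9). Over the 25 chromosomes, the number of kept regions per Mb went only loosely with the chained share (Pearson r = 0.251, Spearman rho = 0.366), where both measures share the same regions. Chromosome 4 had the fewest kept regions per Mb (5.40) but a chained share of 22.3%, and 55.3% of its members had a peak in at least 1 wt1b library, the lowest of all chromosomes. The highest value was 83.9% on chromosome 2. These shares were not computed for the unchained regions of each chromosome, so a trait of chains cannot be told from one of the chromosome.

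Members were frequent near both ends of chromosomes. The first Mb of the chromosomes held 204 members (9.01%) and 309 unchained regions (3.12%), and the Mb before the last peak of a chromosome held 159 members (7.03%) and 312 unchained regions (3.15%). Kept regions that lie densely are chained by the rule wherever they lie, so these shares are a description. Among windows of 1 Mb that held members, the median number was 4 and the highest was 25, reached on chromosome 8 from 34 Mb, on chromosome 10 from 16 Mb and on chromosome 22 from 0 Mb. The first Mb of chromosome 22 held 6 chains, of whose 25 regions 2 were called in all 6 libraries, whereas 13 of the 25 regions on chromosome 10 were. Of the members in the first Mb of chromosomes, 67.2% had a peak in at least 1 wt1b library, against 72.4% of those elsewhere. For unchained regions these 2 shares were not computed. The genes and sequences at these positions were not analysed here.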

How the data were processed

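Per the labels' protocols, sorted cells were lysed and tagmented with Tn5 and the libraries amplified by PCR. The deposited files were headerless peak lists, 1 per library, with coordinates and a score limited to 1000. The score is the authors' own, and it was used only to rank peaks within a list. The submitters' processing notes name Bowtie2, SAMtools, Picard, Genrich and GRCz11. The settings are not given in the sources used here. Depth is unknown, so intervals cover counting of regions only. No label says that replicates came from separate clutches, so p-values measure the spread between these libraries, which may be technical. Merging, chaining and exact tests were run in Python 3.11.15 with numpy 2.4.6, pandas 2.3.3 and scipy 1.17.1. Counts of regions, kept regions, members and chains equalled those of bedtools 2.31.1 (4 of 4 checks). Among 3100 simulated kept regions, chained and isolated, 100% of the planted chain regions were recovered. All planted gaps within chains lay below the limit, so this checks the code and says nothing about the real chains. Members, lists and tests were chosen with earlier results of these data known. Named chains are the 10 with most regions, and, among chains of at least 4 regions, the 5 with most regions called in all 6 libraries and up to 5 without a wt1b peak. The run of chains on chromosome 8, chromosome ends and windows of 1 Mb were chosen after values were seen. Planned results on gene starts, GC content, motifs and gene lists were not run, since no genome in these coordinates was used. Within a group no library duplicated another. A list shared at most 67.5% of its peaks with any other in wt1b and at most 30.6% in control libraries. Lists of different groups were not compared in this way. Alternative settings covered gap, recurrence, chain size, overlap, list length, omitted libraries and replicate block.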

Additional observations from a re-analysis of the deposited data

How the results depend on the processing

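Among the main results rerun under alternative settings, the direction changed in 2 cases. These were the percentage of members called, which was 11.2 points higher in wt1b than in control libraries at equal list size, and the share of peaks at the score limit, which was -0.589 points within classes of recurrence. Beside these, the percentage of unchained regions called and the chained share of regions rebuilt within each group also turned at equal list size, as given above. The number of members moved to 1102 with a gap of 5000 bp, 3827 with 25000 bp, 768 with 3 libraries required, 1174 in chains of 4 or more, 921 in the stronger 50% of each list, 407 at equal size and 1467 with regions under 1 kb apart joined. The excess in a left-out library was 5.07 points with centres of 200 bp and 7.34 points in the stronger 50%. It was 14.4 points with a gap of 5000 bp, 7.56 points with close regions joined and 7.89 points without the 10 largest chains. The width difference was 93 bp at equal size, where the control peaks were chosen by width. It was 63.1 bp in the stronger 50% and 61.5 bp in chains of 4 or more. The members' share of calls differed by 1.12 points with 3 libraries required and by 0.262 points at equal size. At control-defined chains the excess was 18.3 points with a gap of 5000 bp and 7.73 points with centres of 200 bp. The excess at the score limit was 3.56 points with 3 libraries required and 1.62 points in left-out libraries, both short of the threshold. At equal size its mean was 3.98 points. There every control peak used was at the limit, so the controls could show no difference and this value decides nothing. Leaving out each library in turn gave 1244 to 2160 members, with the lowest counts without control replicate 2 (1244) and control replicate 3 (1444). It gave 7.99 to 10.2 points in left-out libraries, 36.6 to 51.2 bp in width and 3.91 to 5.49 points at the score limit. These fits of 5 libraries allow no p under 0.0625, so their p-values say nothing about stability. The excess of wt1b peaks at control-defined chains ranged from 10.6 to 17.5 points, the highest without control replicate 2, and the members' share of calls from 2.04 to 3.44 points, the lowest without control replicate 2 or 3 (both 2.04). The percentage of members called ranged from -40.0 to -22.2 points. With the replicate number as a block, the differences of -29.0 and 3.14 points kept their values, since a block does not enter the means. Deviations of same-numbered libraries from their group means correlated at -0.0702, -0.0126 and -0.0464. Values for differently numbered libraries are not given beside them, so these do not show whether replicates were paired. Alternatives that join close regions, drop the largest chains, measure peaks in left-out libraries or compare within classes were chosen after seeing the data.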
